A study of Mus musculus with 10 samples.

Results

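The unfolded protein response (UPR) and the chaperones of the endoplasmic reticulum (ER) were followed through 33 genes chosen by name: ER chaperones and their partners, folding enzymes, stress sensors, genes of ER-associated degradation (ERAD) and genes of protein entry and exit. All 33 were measured, among 19938 genes of the arrays. The study compared melanoma tumour tissue of male mice on Affymetrix whole-transcript arrays, 5 from the Exercise group and 5 from the non-Exercise group (n = 5 each). Its title names voluntary exercise, and RNA was isolated with either of 2 kits without a record of which tumour had which. The labels give no mouse strain, age, tumour line or length of exercise, and list no allele or drug for either group. Arrays carry the numbers of their titles, 300, 301, 306, 309 and 310 in the Exercise group and 326, 327, 329, 330 and 331 in the non-Exercise group. The labels do not say that these numbers are animals, so a p-value here covers only the variation among the 10 tumours sampled, which may be technical in part.

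Proteins that enter the secretory pathway fold in the ER lumen, helped by the Hsp70 protein BiP, by lectin chaperones that hold glycoproteins and by isomerases that form disulfide bonds. When unfolded proteins build up, the sensors IRE1, ATF6 and PERK are released from BiP or activated by the unfolded chains, and raise transcription of chaperones and of ERAD genes, whose products return misfolded chains to the cytosol for destruction by the proteasome. Secretory cells, melanocytes among them, carry a heavy flow of glycoproteins through this system. Gene-level arrays give the sum of a gene's transcripts, so the splicing of Xbp1 mRNA by IRE1 was not measured.

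Levels are on the log2 scale of the deposited table after quantile normalization, and a change is the Exercise mean less the non-Exercise mean, given ± its standard error (SE). The labelled tissue was borne out by its markers, with melanocytic genes such as Dct at 13.46 to 13.66 in Exercise arrays and 13.55 to 13.65 in non-Exercise arrays. None of 10 melanocytic markers passed the test, and the log2 of their summed level was 16.22 to 16.35 in Exercise arrays against 16.22 to 16.34 in non-Exercise arrays. Exercise arrays 306, 309 and 310 stood apart by hepatocyte transcripts, with a log2 summed level of 14.23 to 14.68 over 19 markers, of which 4 were called higher in the Exercise group. The other Exercise arrays had 12.81 and 12.90, against 12.92 to 13.08 in the non-Exercise group. The same 3 arrays were also the highest by 7 lymphocyte and NK cell markers, with a log2 summed level of 10.68 to 10.74. Exercise arrays 300 and 301 had 10.23 and 10.03, and the non-Exercise arrays at most 10.21. In these 3 arrays Cd3e, Cd3g and Cd8a lay above all non-Exercise arrays, while the other markers overlapped. Leaving out these 3 arrays thus removes both kinds of transcript, and their separate parts were not tested. Where a named gene's call changes without these 3 arrays, the value without them is given.

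Of the 33 members, 1 was higher and 7 were lower in the Exercise group at a limma adjusted p under 0.05, and 25 did not pass. The members called made up 24.2% of the list, 3.03% higher and 21.2% lower, against 17.0% of all genes tested, 6.35% higher and 10.6% lower. Of the members 27 lay above the 75th percentile of signal, and above that percentile 11.0% of all genes were higher and 17.9% lower. The share of lower members was near the share among such genes. The median log2 change of the members was -0.10, against -0.02 over all genes, and 29 of the 33 had a negative change. The share of negative changes over all genes, or over genes of like signal, was not counted. With arrays centred on their medians the calls over all genes were 938 higher and 3076 lower, and the members numbered 1 higher and 14 lower. The count of lower members was 4 without array 300, 306 or 309 of the Exercise group or array 326, 329 or 331 of the non-Exercise group, and 3 without array 327. That of higher members was 2 without array 331. The lower members were Sdf2l1, Edem2, Os9, Syvn1, Dnajb9, Pdia4 and Atf6, and the higher one was Ern1. The largest change of a member past the threshold was 1.35-fold. Whole-tumour RNA cannot tell fewer cells of a type from less RNA per cell.

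**Figure D1:**
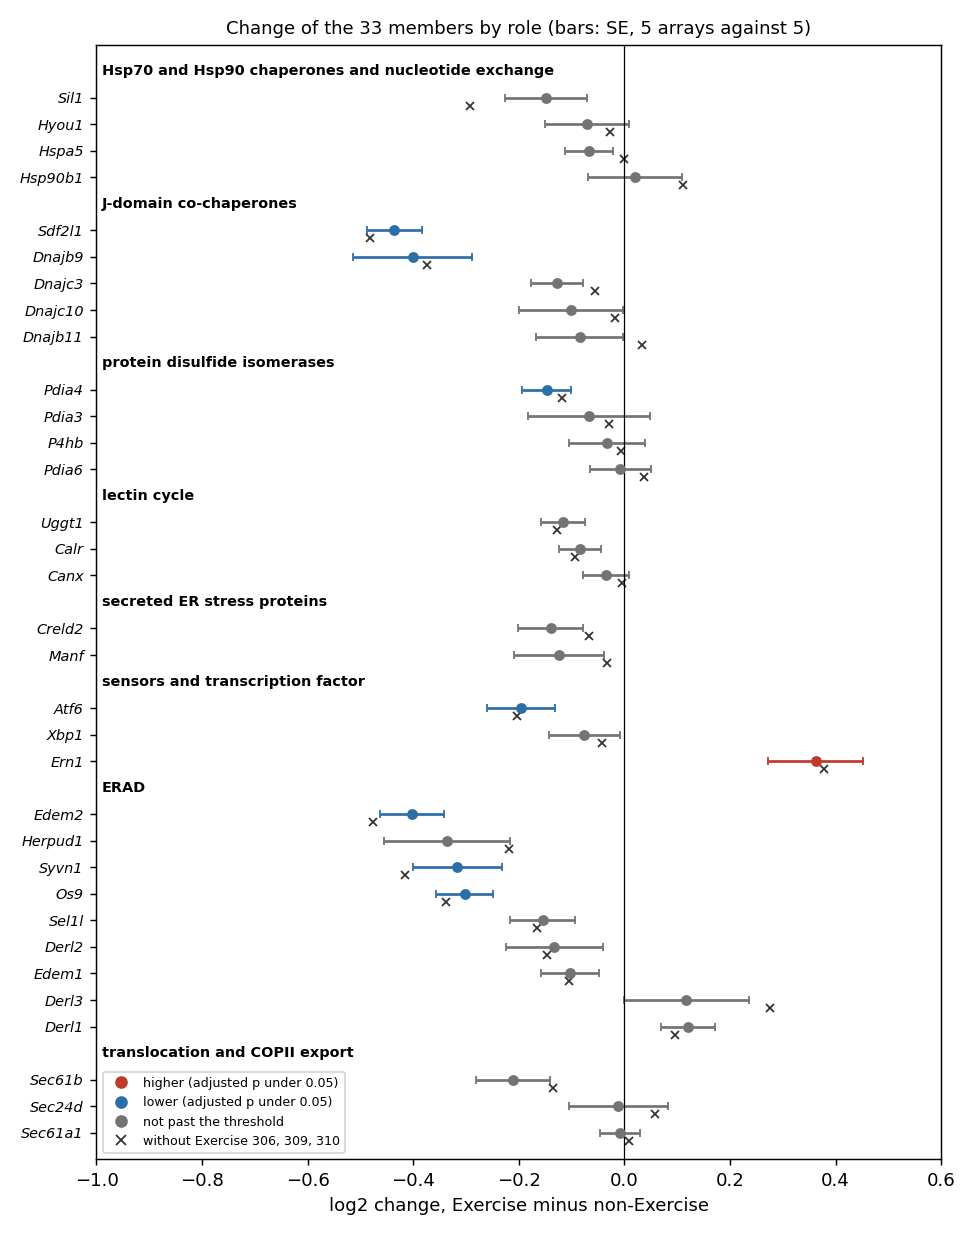
Log2 change (Exercise minus non-Exercise, x axis) of each of the 33 members, grouped by role, with bars for the SE of 5 arrays against 5 and crosses for the change without Exercise arrays 306, 309 and 310. Sdf2l1, Edem2 and Dnajb9 lie near -0.4 and Ern1 at 0.36, while Hsp90b1, Pdia6, Sec24d and Sec61a1 lie near 0.

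Several of these genes carry the ER stress response element (ERSE), the site of ATF6 and XBP1 in promoters of ER chaperones. RefSeq promoter windows (GRCm38.p6, 250 bases before to 50 after the start of a gene) were given for 27 members, in 28 windows. The ERSE was searched as CCAAT and CCACG with any 9 bases between them, the related ERSE-II as ATTGG and CCACG with any 1 base between them, and the UPR element UPRE as TGACGTGG, each on both strands, and no window held both ERSE and ERSE-II. An ERSE match was found in 9 of the 28 member windows (32.1%) and in 39 of all 32851 windows (0.119%). ERSE-II was found in 2 member windows and in 12 of all windows (0.0365%), and UPRE in 1 member window and in 222 of all (0.676%). The 103 windows of genes from the wider ER lists described last held 1 ERSE match and 6 UPRE matches. The 6 members with a match and the smallest p are shown, as the 170 bases before the start in the direction of transcription, with the fixed letters of the match in capitals.
Syvn1, chr19:6046406-6046575, plus strand: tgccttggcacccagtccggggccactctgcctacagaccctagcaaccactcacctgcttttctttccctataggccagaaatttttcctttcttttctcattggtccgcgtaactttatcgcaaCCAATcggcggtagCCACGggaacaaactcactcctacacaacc
Herpud1, chr8:94386259-94386428, plus strand: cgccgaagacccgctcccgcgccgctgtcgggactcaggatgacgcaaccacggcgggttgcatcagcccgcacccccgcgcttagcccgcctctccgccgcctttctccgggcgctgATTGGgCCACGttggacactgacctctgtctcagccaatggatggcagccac
Dnajc3, chr14:118937762-118937931, plus strand: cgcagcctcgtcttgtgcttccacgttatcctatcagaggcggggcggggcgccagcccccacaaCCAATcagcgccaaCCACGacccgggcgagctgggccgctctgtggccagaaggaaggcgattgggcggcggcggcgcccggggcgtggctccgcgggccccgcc
Creld2, chr15:88819476-88819645, plus strand: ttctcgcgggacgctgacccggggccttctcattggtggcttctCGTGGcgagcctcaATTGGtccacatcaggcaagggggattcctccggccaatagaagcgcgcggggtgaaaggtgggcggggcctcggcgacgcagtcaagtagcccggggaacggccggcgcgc
Calr, chr8:84846932-84847101, minus strand: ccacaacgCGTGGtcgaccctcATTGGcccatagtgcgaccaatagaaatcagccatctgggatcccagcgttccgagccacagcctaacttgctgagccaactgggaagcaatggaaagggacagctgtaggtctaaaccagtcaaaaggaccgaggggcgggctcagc
Hspa5, chr2:34771920-34772089, plus strand: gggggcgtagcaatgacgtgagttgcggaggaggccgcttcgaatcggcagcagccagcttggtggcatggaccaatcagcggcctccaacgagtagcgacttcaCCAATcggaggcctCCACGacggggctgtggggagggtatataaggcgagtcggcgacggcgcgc
The capitals mark an ERSE-II in Herpud1 and an ERSE in the other 5, read on the reverse strand in Creld2 and Calr. Of the 9 members with an ERSE match, Calr, Canx, Creld2, Derl3, Dnajc3, Hsp90b1, Hspa5, Pdia6 and Syvn1, only Syvn1 passed the test, and their median log2 change was -0.07 with a range of -0.32 to 0.12. Of the 18 members whose windows held no ERSE match, 5 were lower and 1 was higher, with a median log2 change of -0.12 and a range of -0.44 to 0.36. Herpud1 and Dnajb11, among these 18, held an ERSE-II match. Of the 6 members without a window 1 was lower, Atf6, and none higher. Over all genes 10.6% were lower and 6.35% higher, and a difference between these small groups was not tested. A match describes letters in the window and not binding, and these promoter counts were made with the changes of the members known. Since the members were chosen by name as genes of this response, their larger share of matches may follow from that choice and is no test.

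Among the chaperones of the Hsp70 and Hsp90 families none of 4 passed. Hspa5, which encodes BiP, had levels of 13.10, 13.20, 12.98, 13.04 and 13.09 in Exercise arrays 300, 301, 306, 309 and 310, against 13.12, 13.16, 13.12, 13.10 and 13.24 in non-Exercise arrays 326, 327, 329, 330 and 331. The groups overlapped, with the lowest values in the Exercise arrays that held hepatocyte transcripts, and the log2 change was -0.07 ± 0.05 (limma adjusted p = 0.379). Without those 3 arrays the change of Hspa5 was 0.00 on the same scale (adjusted p = 0.998). Hsp90b1, which encodes the ER Hsp90 GRP94, averaged 12.22 ± 0.19 in Exercise arrays and 12.20 ± 0.14 in non-Exercise arrays (SD, n = 5 each). This small difference of 0.02 was negative with the table as deposited (-0.01) and with arrays centred on their medians (-0.07). Hyou1, a large Hsp70-like protein that exchanges nucleotide on BiP, differed by -0.07 ± 0.08 on the log2 scale (limma adjusted p = 0.646). Sil1, another nucleotide exchange factor of BiP, lay at 9.72 and 9.80 in Exercise arrays 300 and 301, at 9.91 to 10.11 in Exercise arrays 306, 309 and 310, against a mean of 10.05 ± 0.07 in the non-Exercise arrays (SD, n = 5). Every Exercise array but 306 was below all non-Exercise arrays. The log2 change of Sil1 was -0.15 ± 0.08 with all arrays (limma adjusted p = 0.223) and -0.29 ± 0.08 without arrays 306, 309 and 310 (adjusted p = 0.0309).

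The co-chaperones of BiP had 2 lower genes among 5, and none was higher, where 10.6% of all genes were lower and 6.35% higher. Sdf2l1, a luminal protein that binds the J-domain protein ERdj3 and keeps unfolded chains from clumping, had the smallest p of the members. Its levels were 11.38, 11.59, 11.52, 11.59 and 11.59 in the Exercise arrays, against 11.97, 11.95, 11.96, 11.91 and 12.05 in the non-Exercise arrays. No values overlapped, and the log2 change was -0.44 ± 0.05, or 1.35-fold lower (limma adjusted p = 0.000202). The call of Sdf2l1 held in every alternative setting that was run, with changes of -0.52 to -0.40. Dnajb9, which encodes ERdj4, a J-domain protein that brings BiP to misfolded chains and to IRE1, had levels of 9.87, 10.59, 10.08, 10.13 and 10.33 in the Exercise arrays, against 10.57, 10.67, 10.60, 10.40 and 10.76 in the non-Exercise arrays. Exercise array 301 lay within the non-Exercise range and the other 4 lay below it, and the log2 change was -0.40 ± 0.11 (limma adjusted p = 0.0254). Dnajb9 lost its call on removal of Exercise array 300, 306 or 309, or of array 326, 327, 329 or 331 of the non-Exercise group (adjusted p 0.00237 to 0.0621 over the 10 removals), and lost it without arrays 306, 309 and 310 together (-0.37, adjusted p = 0.132). Dnajc3, which encodes p58IPK, averaged 11.61 ± 0.09 in Exercise arrays and 11.74 ± 0.03 in non-Exercise arrays (SD, n = 5 each), and its groups did not overlap although the test was not passed (limma adjusted p = 0.0965). Its 2 probe sets held the same values. Dnajc3 was called lower with the table as deposited (-0.16, adjusted p = 0.0399) and with arrays centred on their medians (-0.22, adjusted p = 0.00832). Dnajb11, which encodes ERdj3, and Dnajc10, which encodes the disulfide reductase ERdj5, had log2 changes of -0.08 and -0.10 and did not pass.

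**Figure D2:**
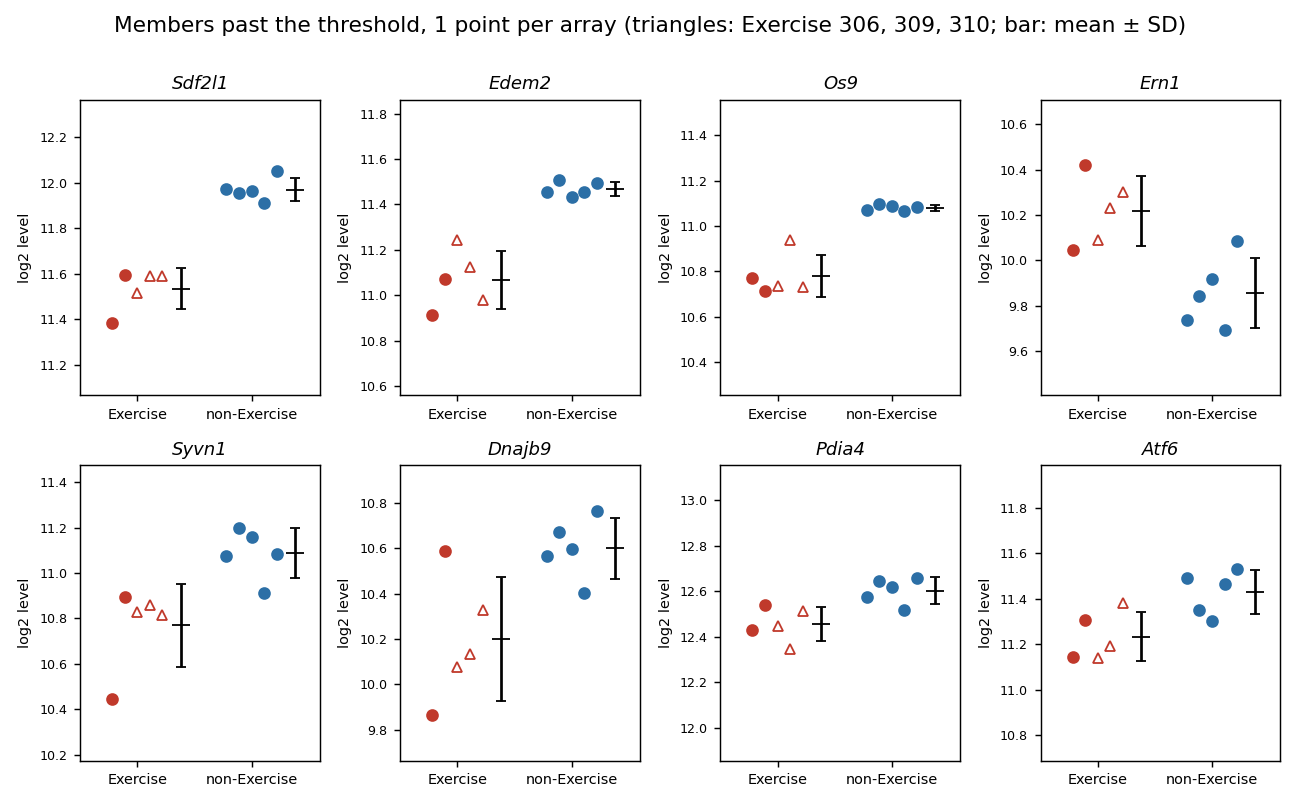
Log2 level (y axis) of the 8 members past the threshold in each Exercise array (left) and non-Exercise array (right), with the mean and SD as bars and triangles for Exercise arrays 306, 309 and 310. The groups do not overlap for Sdf2l1, Edem2, Os9 and Syvn1 and overlap for Ern1, Dnajb9, Pdia4 and Atf6.

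Of the 4 protein disulfide isomerases, which form and shuffle disulfide bonds, 1 was lower, where 10.6% of all genes were lower. Pdia4, the isomerase ERp72, averaged 12.46 ± 0.08 in Exercise arrays and 12.60 ± 0.06 in non-Exercise arrays (SD, n = 5 each). Its log2 change was -0.15 ± 0.05 (limma adjusted p = 0.0441). A second probe set of Pdia4 had a log2 change of 0.03 ± 0.12, and with the mean of both the change was -0.06 (adjusted p = 0.725). The call of Pdia4 was lost on removal of Exercise array 300, 306 or 309, or of non-Exercise array 326, 327, 329 or 331 (adjusted p 0.0323 to 0.111 over the 10 removals), and without arrays 306, 309 and 310 together (-0.12, adjusted p = 0.209). Pdia3 (ERp57, the partner of the lectin chaperones), Pdia6 and P4hb had log2 changes of -0.07 ± 0.12, -0.01 ± 0.06 and -0.03 ± 0.07. Pdia3 spread widely within the Exercise group, at 11.61, 11.55, 11.36, 11.23 and 11.97, against 11.65, 11.65, 11.60, 11.37 and 11.80 in the non-Exercise arrays.

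The 3 genes of the lectin cycle, in which calnexin and calreticulin hold glycoproteins until they are folded, did not pass. The difference was -0.03 ± 0.04 on the log2 scale for Canx, which encodes calnexin (limma adjusted p = 0.693), and -0.08 ± 0.04 for Calr, which encodes calreticulin (limma adjusted p = 0.183). Uggt1, the enzyme that puts glucose back on glycoproteins that are not yet folded, lay at 11.92, 11.97, 11.94, 11.99 and 11.96 in the Exercise arrays, against 12.07, 12.02, 12.03, 12.10 and 12.15 in the non-Exercise arrays. These narrow groups did not overlap, and the log2 change was -0.12 ± 0.04 (limma adjusted p = 0.0742). Uggt1 was called lower with the table as deposited (-0.15, adjusted p = 0.0246) and with arrays centred on their medians (-0.21, adjusted p = 0.00483). The secreted proteins of ER stress also did not pass, with log2 changes of -0.12 ± 0.08 for Manf, a protein retained in the ER until stress releases it, and -0.14 ± 0.06 for Creld2. Creld2 was called lower with arrays centred on their medians (-0.23, adjusted p = 0.0320).

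**Figure D3:**
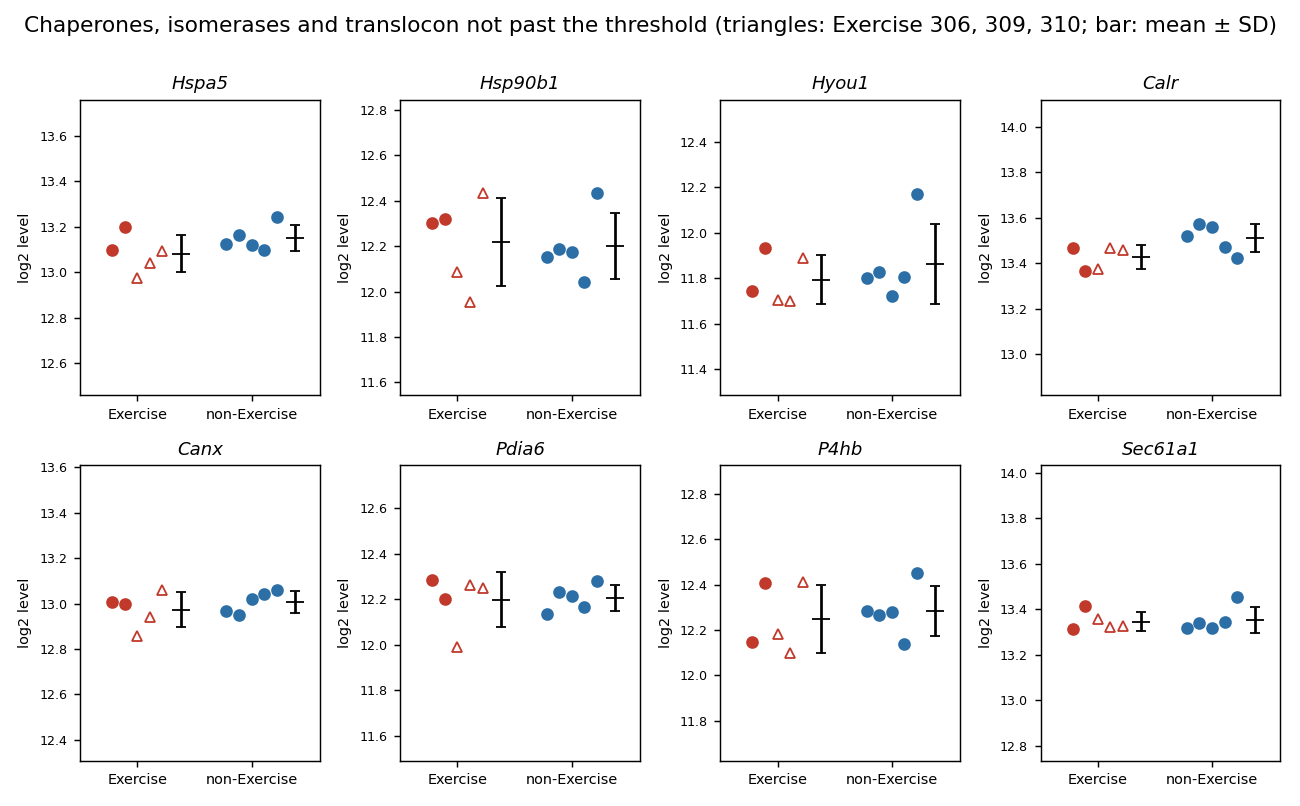
Log2 level (y axis) of 8 chaperones, isomerases and translocon genes that did not pass the test, in each Exercise array (left) and non-Exercise array (right), with the mean and SD as bars and triangles for Exercise arrays 306, 309 and 310. The groups overlap in every panel, and the mean of Hspa5 is 13.08 in Exercise arrays and 13.15 in non-Exercise arrays.

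The stress sensors changed in opposite directions. Ern1, which encodes IRE1 alpha, the kinase and endoribonuclease that splices Xbp1 mRNA, had levels of 10.05, 10.42, 10.09, 10.23 and 10.30 in the Exercise arrays, against 9.74, 9.85, 9.92, 9.69 and 10.08 in the non-Exercise arrays. Only non-Exercise array 331 reached into the Exercise range, above array 300, and the log2 change was 0.36 ± 0.09, or 1.29-fold higher (limma adjusted p = 0.0134). The call of Ern1 held when any 1 array was left out (adjusted p 0.00578 to 0.0415). It was not passed without arrays 306, 309 and 310 (0.38, adjusted p = 0.0574). Atf6, the membrane-bound sensor whose cut fragment is a transcription factor, had levels of 11.14, 11.31, 11.14, 11.19 and 11.38 in the Exercise arrays, against 11.49, 11.35, 11.30, 11.46 and 11.53 in the non-Exercise arrays. The groups overlapped, and the log2 change was -0.20 ± 0.06 (limma adjusted p = 0.0487). Its call was lost on removal of Exercise array 300, 306 or 309, or of array 326, 327, 330 or 331 of the non-Exercise group (adjusted p 0.0220 to 0.122 over the 10 removals), and without arrays 306, 309 and 310 together (-0.20, adjusted p = 0.107). For Xbp1, the transcription factor made active by IRE1, the difference was -0.08 ± 0.07 on the log2 scale (limma adjusted p = 0.533).

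Besides some hepatocyte markers, markers of macrophages and fibroblasts were higher in the Exercise group, and those of other listed cells did not pass. None was called among 7 lymphocyte and NK cell, 6 endothelium, 7 adipocyte, 8 skeletal muscle and 5 keratinocyte markers. Of 10 macrophage markers 9 were higher in the Exercise group (5 without arrays 306, 309 and 310), with a log2 summed level of 13.34 to 14.71 in Exercise arrays against 12.83 to 13.35 in non-Exercise arrays. Of 10 fibroblast markers 6 were higher (5 without those arrays), at 13.71 to 15.02 in Exercise arrays against 13.15 to 13.93 in non-Exercise arrays. Plasma cell markers, of which none of 8 passed, lay at 11.51 to 11.76 in Exercise arrays against 11.63 to 11.77 in non-Exercise arrays. Of the 8 plasma cell markers only Sdc1 lay above the 75th percentile of mean level, while Jchain and Cd79a lay at percentiles 3.46 and 11.7. The summed level thus says little about plasma cells. Exercise array 301 had the lowest summed macrophage level of the Exercise group, 13.34, and the highest Ern1 level of all 10 arrays, 10.42. Exercise arrays 309 and 310 had the highest summed macrophage levels, 14.71 and 14.59, and the next highest Ern1 levels, 10.23 and 10.30. Exercise arrays 300 and 306 lay between by macrophage level, at 14.19 and 13.97, and had the lowest Ern1 levels of the Exercise group, 10.05 and 10.09. The part of these cells in the changes of the members was not tested.

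ERAD genes held 3 of the 7 lower members, with 3 of 9 lower, none higher and a median log2 change of -0.16. Over all genes 10.6% were lower, and 17.9% of those above the 75th percentile of signal, where 7 of the 9 lay. A difference of these few genes from those shares was not tested. Edem2, a mannosidase that starts the trimming of misfolded glycoproteins, had levels of 10.91, 11.07, 11.24, 11.12 and 10.98 in the Exercise arrays, against 11.45, 11.51, 11.43, 11.46 and 11.50 in the non-Exercise arrays. No values overlapped, and the log2 change was -0.40 ± 0.06, or 1.32-fold lower (limma adjusted p = 0.000700). Os9, the lectin that recognises trimmed glycoproteins and hands them to the HRD1 ligase, had levels of 10.77, 10.71, 10.73, 10.94 and 10.73 in the Exercise arrays, against 11.07, 11.10, 11.09, 11.06 and 11.08 in the non-Exercise arrays. Again no values overlapped, and the log2 change was -0.30 ± 0.05 (limma adjusted p = 0.00196). Calls of Edem2 and Os9 held in every alternative setting that was run, and without arrays 306, 309 and 310 their log2 changes were -0.48 ± 0.06 and -0.34 ± 0.06 (adjusted p = 0.000887 and 0.00351). Syvn1, which encodes HRD1, the membrane ubiquitin ligase of ERAD, had levels of 10.45, 10.89, 10.83, 10.86 and 10.82 in the Exercise arrays, against 11.08, 11.20, 11.16, 10.91 and 11.08 in the non-Exercise arrays. Its groups did not overlap, array 300 lay far below the other Exercise arrays, and the log2 change was -0.32 ± 0.08 (limma adjusted p = 0.0194). Syvn1 lost its call on removal of array 327 or 329 of the non-Exercise group (adjusted p 0.0140 to 0.0550 over the 10 removals) and passed without arrays 306, 309 and 310 (-0.42 ± 0.11, adjusted p = 0.0251). With the melanocytic score as a covariate it did not pass (-0.27, adjusted p = 0.0787).

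The other 6 ERAD members did not pass. Herpud1, which encodes HERP, a scaffold of the HRD1 complex, had levels of 11.35, 12.19, 11.67, 11.55 and 11.51 in the Exercise arrays, against 11.79, 12.04, 12.04, 12.03 and 12.06 in the non-Exercise arrays. Exercise array 301 was the highest of all 10 arrays and the other 4 Exercise arrays were the lowest. The log2 change of Herpud1 was -0.34 ± 0.12 (limma adjusted p = 0.0711), and -0.47 without array 301, where it passed (adjusted p = 0.000646). It also passed with the table as deposited (-0.37, adjusted p = 0.0475) and with arrays centred on their medians (-0.43, adjusted p = 0.0244). Sel1l, the adaptor that holds HRD1 and Os9 together, differed by -0.16 ± 0.06 on the log2 scale (limma adjusted p = 0.105), and passed without Exercise array 310 (-0.19, adjusted p = 0.0369). Edem1 had a log2 change of -0.10 ± 0.06. With arrays centred on their medians Sel1l (-0.24, adjusted p = 0.0297) and Edem1 (-0.19, adjusted p = 0.0364) were called lower. Of the derlins, membrane proteins that help chains leave the ER, Derl1 had a log2 change of 0.12 ± 0.05, Derl2 of -0.13 ± 0.09 and Derl3 of 0.12 ± 0.12. Derl1 passed without non-Exercise array 331 (0.16, adjusted p = 0.0409).

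None of the 3 members of entry and exit passed. Sec61a1, the pore of the channel through which chains enter the ER, lay at 13.31, 13.41, 13.36, 13.32 and 13.33 in the Exercise arrays, against 13.32, 13.34, 13.32, 13.34 and 13.45 in the non-Exercise arrays, a log2 change of -0.01 ± 0.04 (limma adjusted p = 0.932). The groups overlapped almost fully, and the sign turned with the table as deposited (0.0029). Sec61b, a small subunit of the channel, lay at 10.01, 10.15, 9.98, 9.98 and 9.89 in the Exercise arrays, against 10.12, 10.24, 10.20, 10.12 and 10.39 in the non-Exercise arrays. Only Exercise array 301 reached the non-Exercise range, and each of the 3 probe sets of Sec61b differed by -0.21 on the log2 scale (limma adjusted p = 0.0541 for the one used). It passed without Exercise array 301 (-0.25, adjusted p = 0.0308), with the table as deposited (-0.22, adjusted p = 0.0375) and with arrays centred on their medians (-0.28, adjusted p = 0.0123). Sec24d, a cargo receptor of the COPII coat that carries proteins out of the ER, had a log2 change of -0.01 ± 0.09.

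Arrays differed in how many members they held at an extreme. Exercise array 300 was the lowest of all 10 arrays for 10 members, arrays 306 and 309 for 8 each, array 301 for 2 and array 310 for 1. Non-Exercise array 331 was the highest for 15, arrays 327 and 326 for 5 and 2, and Exercise arrays 310, 300 and 301 for 5, 3 and 3. Such counts were not made over all genes. The median of the 33 members relative to their non-Exercise means was -0.12, -0.03, -0.17, -0.16 and -0.03 in the Exercise arrays, against -0.03, 0.01, -0.02, -0.06 and 0.08 in the non-Exercise arrays. Arrays 301 and 310 thus lay within the non-Exercise range by this median. The median over all genes, taken the same way, was 0.01, -0.003, -0.04, -0.01 and -0.11 in the Exercise arrays. It was -0.01 to 0.02 in the non-Exercise arrays, so array 310 was lower over all genes than over the members. The log2 summed level of 8 skeletal muscle markers also parted the Exercise arrays, at 12.66, 13.14 and 13.70 in arrays 300, 306 and 309. It was 10.79 and 10.75 in arrays 301 and 310, against 11.3 to 12.3 in the non-Exercise arrays. A link of muscle transcripts to the levels of the members was not tested. All Exercise values lay below all non-Exercise values for 6 of the 33 members, and above for none, against 8.33% and 3.74% of all genes. The 6 were Sdf2l1, Edem2, Os9, Syvn1, Dnajc3 and Uggt1. These shares were not counted for genes above the 75th percentile of signal, where 27 members lay. Without arrays 306, 309 and 310, 5 members were lower and none higher (Sdf2l1, Edem2, Os9, Syvn1 and Sil1), where 8.06% of all genes were lower and 3.74% higher. In that comparison 25 of the 33 members had a negative change, with a median of -0.05 on the log2 scale, against 0.0065 over all genes.

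**Figure D4:**
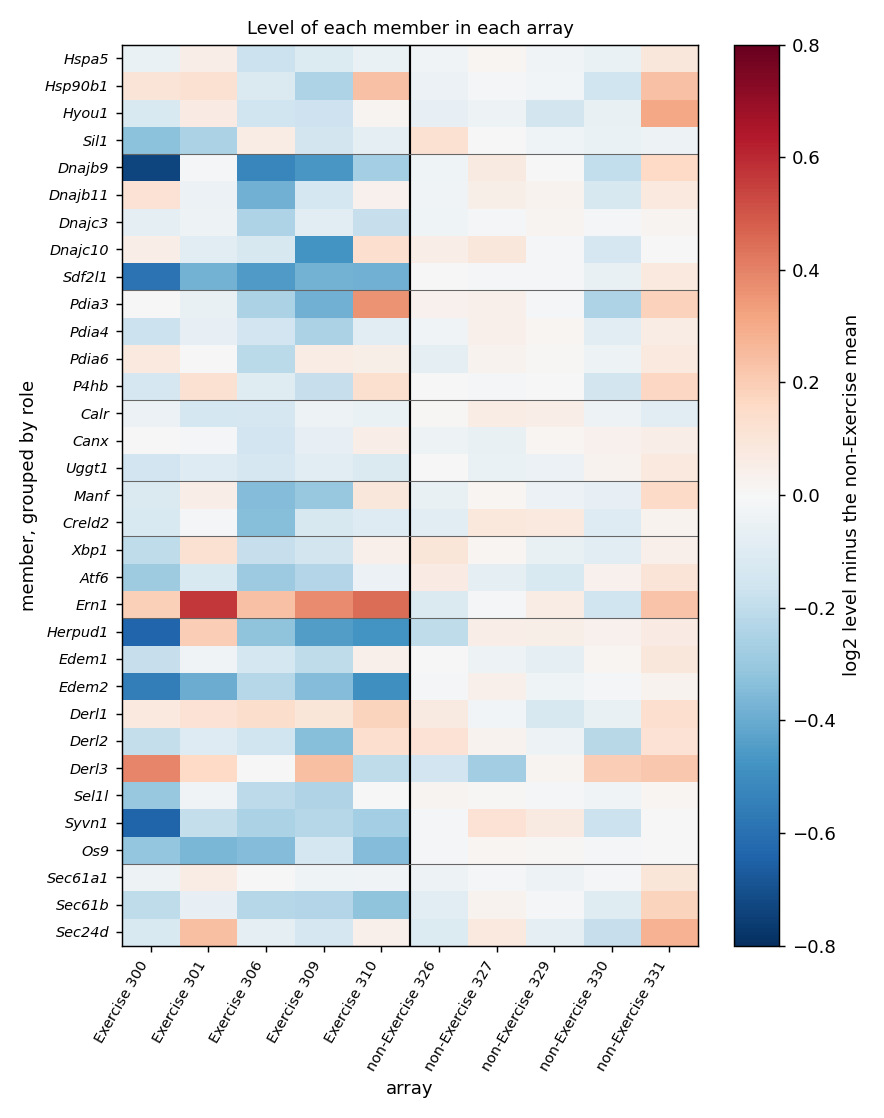
Colour gives the log2 level of each member (rows, grouped by role) in each array (columns, Exercise left of the line) minus the mean of the non-Exercise arrays. Rows of Sdf2l1, Edem2 and Os9 are blue in all 5 Exercise arrays and Ern1 is red, while array 331 holds the highest level of 15 members.

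Some related genes changed unequally in these arrays. For 18 pairs of paralogs, sensors or partners, the difference of 2 genes within each array was compared between the groups. The test was an exact permutation over 252 splits, two-sided, whose smallest p is 0.00794. After adjustment over the 18, 9 pairs passed. The pairs were chosen with the values of the members in these same arrays known, so these p-values are no independent test. Ern1 changed by 0.56 ± 0.09 more than Atf6 and by 0.68 ± 0.09 more than Eif2ak3, which encodes the sensor PERK (adjusted exact p = 0.0238 for each). Atf6 and Eif2ak3 differed by 0.12 ± 0.09 (adjusted exact p = 0.296). Edem1 changed by 0.30 ± 0.09 more than Edem2 (adjusted exact p = 0.0238), and did not pass without non-Exercise array 326, 327, 329 or 331. The difference between Uggt1 and its paralog Uggt2 was -0.48 ± 0.05 (adjusted exact p = 0.0238), and that between Sec61a1 and Sec61a2 was -0.31 ± 0.05 (adjusted exact p = 0.0238). Both held when any 1 array was left out, as did both differences of Ern1. Sdf2l1 changed by -0.23 ± 0.05 relative to its paralog Sdf2 (adjusted exact p = 0.0238), which was lost without non-Exercise array 326 or 329. Sec24d against Sec24c (0.50 ± 0.12), Atf6 against Atf6b (0.27 ± 0.09) and Derl1 against Derl2 (0.25 ± 0.08) had an adjusted exact p of 0.0317, and each was lost on leaving out 1 of 5, 5 and 8 arrays. Syvn1 and its partner Sel1l differed by -0.16 ± 0.08 (adjusted exact p = 0.156). With the 7 arrays left without 306, 309 and 310, 21 splits allow no p below 0.0476, and the 9 differences kept their direction but did not pass (adjusted exact p = 0.0779 for each).

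**Figure D5:**
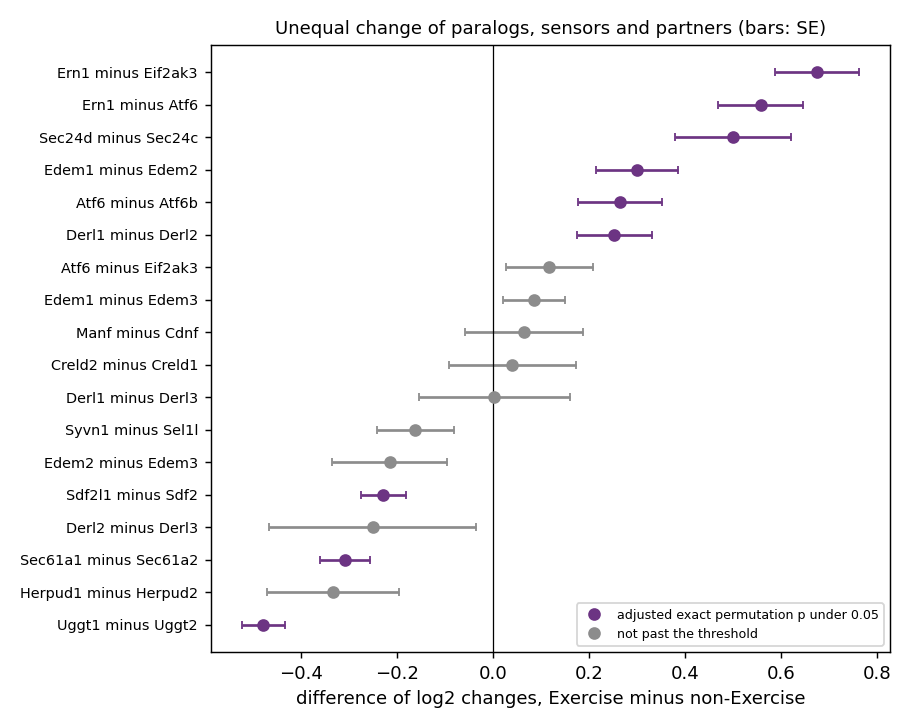
Difference between the log2 changes (Exercise minus non-Exercise, x axis) of the 2 genes of each of 18 pairs, with bars for the SE and purple points for an adjusted exact permutation p under 0.05. Ern1 minus Eif2ak3 lies at 0.68 and Uggt1 minus Uggt2 at -0.48.

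The wider ER network was described by 108 measured genes of 8 further lists, of which 6 were higher and 22 lower in the Exercise group (5.56% and 20.4%), against 6.35% and 10.6% of all genes. Of the 108, 77 lay above the 75th percentile of signal, where 11.0% of all genes were higher and 17.9% lower. Without arrays 306, 309 and 310 the counts were 5 and 13, against 3.74% and 8.06% of all genes, and without non-Exercise array 327 the lower genes numbered 14. In the PERK and ATF4 branch, 3 of 8 were lower and none higher. Chac1, a glutathione-degrading enzyme induced by this branch, lay at 10.33, 11.23, 10.78, 10.48 and 10.06 in the Exercise arrays, against 11.21, 11.44, 11.52, 11.81 and 11.67 in the non-Exercise arrays, a log2 change of -0.96 ± 0.17 (limma adjusted p = 0.00230). Only Exercise array 301 reached the non-Exercise range. Eif2ak3 fell by 0.31 on the log2 scale (limma adjusted p = 0.0349) and Nck1, an adaptor that binds PERK, by 0.26 (limma adjusted p = 0.0465). Atf4, the transcription factor of the branch, differed by -0.02 on the log2 scale (limma adjusted p = 0.945), with 0.16 without arrays 306, 309 and 310, and Ddit3, which encodes CHOP, of -0.22 ± 0.13 (limma adjusted p = 0.285). Eif2ak3 lost its call on removal of Exercise array 300, 306 or 309, or of array 326, 327, 329 or 331 of the non-Exercise group, and Nck1 passed only without Exercise array 310 or non-Exercise array 331 when 1 array was left out. Neither passed without arrays 306, 309 and 310, where the log2 change was -0.27 for Eif2ak3 (adjusted p = 0.115) and -0.27 for Nck1 (adjusted p = 0.0765), and 1 of the 8 genes of the branch was then lower. With the melanocytic score as a covariate Ddit3 passed (-0.40, adjusted p = 0.0275).

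Of 7 genes of the ATF6 and CREB3 families and their processing, 2 were lower, where 10.6% of all genes were lower. Atf6b, the paralog of Atf6, lay at 10.64, 10.70, 10.79, 10.81 and 10.62 in the Exercise arrays, against 11.15, 11.18, 11.18, 11.18 and 11.18 in the non-Exercise arrays, a log2 change of -0.46 ± 0.05 (limma adjusted p = 0.000168). The groups were far apart, and without arrays 306, 309 and 310 the change was -0.51. Wfs1, which encodes the ER membrane protein wolframin, fell by 0.25 on the log2 scale (limma adjusted p = 0.0462), and passed only without Exercise array 310 or non-Exercise array 329 when 1 array was left out. Among 12 further oxidoreductases 2 were lower. Prdx4, the ER peroxiredoxin, fell by 0.76 ± 0.12 on the log2 scale (limma adjusted p = 0.00106) with groups that did not overlap, and averaged 9.63 ± 0.18 in Exercise arrays and 10.39 ± 0.27 in non-Exercise arrays (SD, n = 5 each). Erp29 fell by 0.20 on the log2 scale (limma adjusted p = 0.0489), and passed only without Exercise array 309 or non-Exercise array 330 when 1 array was left out. It did not pass without arrays 306, 309 and 310 (-0.22, adjusted p = 0.118). Ero1a, the oxidase that recharges the disulfide isomerases, differed by 0.19 ± 0.11 on the log2 scale (limma adjusted p = 0.255).

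Of 15 further chaperones and prolyl isomerases 5 were lower and none higher, where 10.6% of all genes were lower and 6.35% higher. Of these 15, 11 lay above the 75th percentile of signal, where 17.9% of all genes were lower. Fkbp14, a prolyl isomerase of collagen folding, fell by 0.45 ± 0.09, Cnpy3, a co-factor of GRP94 in folding Toll-like receptors, by 0.36 ± 0.06 and Fkbp2, another prolyl isomerase, by 0.34 ± 0.06 on the log2 scale, with limma adjusted p = 0.00366, 0.00153 and 0.00193. Among 18 further ERAD genes 4 were lower and 1 was higher. Selenos, a selenoprotein that ties the derlins to the ATPase p97, fell by 0.49 ± 0.09 (limma adjusted p = 0.00190) and Rnf5, an ER membrane ubiquitin ligase, by 0.36 ± 0.06 (limma adjusted p = 0.00171). Vcp, which encodes p97, the ATPase that pulls chains out of the ER membrane, lay at 12.00, 11.92, 11.95, 11.85 and 12.03 in the Exercise arrays, against 11.73, 11.76, 11.70, 11.62 and 11.70 in the non-Exercise arrays. Its groups did not overlap, and the log2 change was 0.25 ± 0.05 (limma adjusted p = 0.00344). With arrays centred on their medians Vcp did not pass (0.15, adjusted p = 0.102).

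Genes of protein entry, signal cleavage and glycan transfer changed in both directions, with 3 of 24 higher and 4 lower. Over all genes 6.35% were higher and 10.6% lower. Spcs1, a subunit of signal peptidase, rose by 0.30 ± 0.04 (limma adjusted p = 0.000472) and Sec61a2 by 0.30 ± 0.05 (limma adjusted p = 0.00219), each with groups that did not overlap. Srp68, a subunit of the signal recognition particle, lay at 11.49, 11.66, 11.60, 11.60 and 11.35 in the Exercise arrays, against 11.93, 11.95, 12.00, 11.93 and 11.95 in the non-Exercise arrays, a log2 change of -0.41 ± 0.06 (limma adjusted p = 0.000416). Of 18 genes of COPII transport and retrieval 1 was higher and 2 were lower. Sec24c, a COPII cargo receptor, lay at 11.28, 11.44, 11.47, 11.54 and 11.41 in the Exercise arrays, against 11.92, 11.95, 11.97, 11.95 and 11.90 in the non-Exercise arrays, a log2 change of -0.51 ± 0.05 (limma adjusted p = 6.40e-05). Kdelr1, a receptor that returns escaped chaperones to the ER, rose by 0.27 ± 0.05 (limma adjusted p = 0.00485), but not past the threshold with arrays centred on their medians (0.17, adjusted p = 0.0738). Surf4, a cargo receptor of secreted proteins, fell by 0.13 on the log2 scale (limma adjusted p = 0.0472), and passed only without Exercise array 301 when 1 array was left out. It did not pass without arrays 306, 309 and 310 (-0.14, adjusted p = 0.130). Of 6 genes of glycan trimming and its check 1 was higher, Uggt2, at 10.41, 10.46, 10.35, 10.38 and 10.36 in the Exercise arrays, against 9.93, 10.04, 10.09, 9.98 and 10.11 in the non-Exercise arrays, a log2 change of 0.36 ± 0.06 (limma adjusted p = 0.00103).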

How the data were processed

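RNA of 10 tumours was labelled with biotin and hybridised to Affymetrix whole-transcript arrays, per the labels' protocols. The authors deposited values per probe set, summarised with PLIER per the submitters' processing notes and taken as log2 from their range of 4.66 to 14.55; neither the log base nor any normalization between arrays is recorded there. Since array medians differed by 0.126, arrays were brought to common quantiles (limma 3.58.1, R 4.3.3). Deposited medians were 8.70 to 8.77 in Exercise arrays and 8.64 to 8.70 in non-Exercise arrays, so the offset lay largely between the groups. Of 35556 probe sets, 21789 had 1 gene symbol, 1621 several and 12146 were not listed. Names were checked through Entrez identifiers in GRCm38.p6 (21698 matched, 0 changed). The probe set with the highest mean was used for a gene with several. No filter was applied. lmFit and eBayes with an intensity trend were used, two-sided, with Benjamini-Hochberg adjustment over 19938 genes. No 2 arrays shared over 1 value exactly, and scan dates were not used here. Code was tested on simulated data. The 33 members and the other lists were chosen with earlier results of these data known. Named genes are all members, up to 3 genes past the threshold with the smallest p in each of 8 further lists (108 of 113 genes measured), and Eif2ak3, Atf4, Ddit3 and Ero1a. Promoters are from RefSeq. The settings tried are given in the closing section; the number of arrays limits the precision. Plots used matplotlib 3.10.9 under Python 3.11.15.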

Additional observations from a re-analysis of the deposited data

Results flagged for a closer look

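In groups of 5 arrays, 1 array lay far from the other 4 (a gap over 0.71 of the group's range) in 7 of 112 groups of members and named genes, where chance flags about 5%. In the Exercise group, Syvn1 was 10.45 in array 300 against 10.82 to 10.89 in the others, Os9 was 10.94 in array 309 against 10.71 to 10.77, and Selenos was 10.03 in array 301 against 9.68 to 9.76. In the non-Exercise group, array 331 was highest for Hyou1, at 12.17 against 11.72 to 11.83, and for Sec61a1, at 13.45 against 13.32 to 13.34. Non-Exercise array 326 was lowest for Herpud1, at 11.79 against 12.03 to 12.06, and for Atf6b, at 11.15 against 11.18.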

How the results depend on the processing

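The 11 alternatives were the table as deposited, arrays centred on their medians, dim genes left out, probe sets averaged, eBayes with no trend or in its robust form, array weights, an adjusted p under 0.10, a hepatocyte or melanocytic score as covariate, and leaving out Exercise arrays 306, 309 and 310. Each of 10 arrays was also left out in turn, and pairs were rerun, as chosen after seeing the data, under 5 of the 11. Calls of Sdf2l1, Edem2 and Os9 held in all 21, and 9 of 33 members kept side and direction in all. The count of lower members (7) was 11 with the table as deposited, 14 with arrays centred on their medians, 11 at an adjusted p under 0.10, 4 with the hepatocyte score as covariate and 3 to 9 leaving out 1 array. The count of higher members (1) was 0 with the hepatocyte score, with the melanocytic score and without arrays 306, 309 and 310, and 1 to 2 leaving out 1 array. Lower pathway genes (22) were 35 with centred arrays, 13 with the hepatocyte score and without the 3 arrays, and 14 to 23 leaving out 1 array. Over all genes, 505 were higher and 1253 lower with the hepatocyte score, and 746 higher without the 3 arrays. The causes were not tested. Signs that turned belonged to genes or pairs not past the threshold in either fit. With the table as deposited these were Hsp90b1 (-0.0094) and Sec61a1 (0.0029), with centred arrays Hsp90b1 (-0.0698), and in both Derl1 minus Derl3 (-0.0336), Creld2 minus Creld1 (-0.0154) and Manf minus Cdnf (-0.0321). With array weights they were Pdia6 (0.0024), Sec61a1 (0.015), Sec24d (0.0325) and Atf4 (0.0638). With the hepatocyte score they were Dnajb11 (0.0225), Pdia6 (0.0278), P4hb (0.0016), Sec61a1 (0.0039), Sec24d (0.0486) and Atf4 (0.14), and with the melanocytic score Hsp90b1 (-0.0281) and Derl3 (-0.0456). Without the 3 arrays they were Dnajb11 (0.0335), Pdia6 (0.0371), Sec61a1 (0.0082), Sec24d (0.0582), Atf4 (0.16) and Derl1 minus Derl3 (-0.18). Leaving out 1 array, values spanned 0 for Hsp90b1 (-0.0354 to 0.087), Sec24d (-0.0739 to 0.059), Creld2 minus Creld1 (-0.0393 to 0.1216), Pdia6 (-0.0291 to 0.0442), Atf4 (-0.082 to 0.0293), Derl1 minus Derl3 (-0.0908 to 0.0832), Pdia3 (-0.1745 to 0.0109), P4hb (-0.0738 to 0.0081), Hyou1 (-0.1062 to 0.0057) and Sec61a1 (-0.0258 to 0.0164). Nck1 did not pass with the table as deposited (-0.24), Pdia4 and Surf4 did not under robust eBayes, and Atf6, Erp29, Pdia4, Surf4 and Wfs1 did not under eBayes with no trend. With the hepatocyte score and with the melanocytic score Atf6, Dnajb9, Pdia4, Eif2ak3, Erp29, Nck1 and Surf4 lost their calls, and with the melanocytic score also Syvn1 and Wfs1, while Dnajc3 (-0.17), Sec61b (-0.29) and Ddit3 (-0.40) gained one. Calr (-0.11) and Sel1l (-0.16) gained one with array weights, and Sec61b with dim genes left out. Ern1 did not pass with the hepatocyte score (0.37, adjusted p = 0.0627) or the melanocytic score (0.32, adjusted p = 0.0506). No paired analysis was possible because the groups share no array number. Array number limits the precision, and signal over background was not analysed here.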
